A study of Rattus norvegicus with 10 samples.

Results

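The translation initiation and elongation factor genes were taken as every gene on the array whose rat symbol begins with Eif (eukaryotic initiation factor) or Eef (eukaryotic elongation factor). The rule used names only and no measured value, but the gene set was chosen with earlier results of these data known. It found 57 genes, named by 93 probes, among the 13832 genes that the array's probes could be matched to. Of the 57, 54 were bright enough to test, among 6849 genes tested in all. Eef1a2, Eif2ak3 and Eif5a2 were not well above background on any array and were not tested.

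Expression was measured in liver RNA of male Wistar rats, 5 controls that received vehicle only and 5 rats that received diethylnitrosamine and then thioacetamide (DEN/TAA), with 1 array per rat. Diethylnitrosamine is a liver carcinogen that alkylates DNA, and thioacetamide is a toxin that injures hepatocytes and scars the liver. The treated rats were injected with 200 mg/kg diethylnitrosamine at 6 weeks of age and, from 2 weeks later, with repeated doses of 200 mg/kg thioacetamide for 3 weeks at a time with 1 week of rest between, given as lasting 23 weeks. The labels also put every rat's age at 23 weeks, so the length of treatment is not settled here. No rat received either agent alone, and the effects of the 2 agents cannot be told apart.

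Protein synthesis begins when eIF2 brings the initiator tRNA to the small ribosomal subunit, which eIF3 and the scanning factors prepare and which the eIF4F complex recruits to the capped end of an mRNA. After the subunits join, eEF1A delivers each aminoacyl-tRNA and eEF2 moves the ribosome along. The liver is a major site of protein synthesis, since hepatocytes make most plasma proteins. Initiation is restrained mainly by kinases that phosphorylate eIF2 and by proteins that hold the cap-binding subunit eIF4E, and elongation by a kinase of eEF2.

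Levels below are log2 signals relative to each array's own 75th percentile, taken over the probes well above background on all 10 arrays. Differences are DEN/TAA minus control on that log2 scale, with the standard error (SE) of the limma fit, and adjusted p-values are Benjamini-Hochberg values from limma over all 6849 genes, with a threshold of 0.05. A level is set against other levels of the same gene only, since different probes are not comparable.

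The arrays themselves differed between the groups. Spots well above background made up 16.5% to 32.9% of control arrays and 36.1% to 46.6% of DEN/TAA arrays, and control 5 was the dimmest. The log2 signal of the spike-in RNA was 12.42 to 13.46 on control arrays and 13.6 to 14.07 on DEN/TAA arrays. The 75th percentile used for scaling was 9.58 to 11.2 and 11.89 to 12.69. Array brightness thus went with the group, and its part in the results below was not tested. All 12 hepatocyte marker genes looked for, such as Alb and Ttr, were well above background on all 10 arrays, and 10 of them fell, and their summed level was 8.86 to 9.53 in controls and 7.91 to 8.28 in DEN/TAA rats. Summed levels of biliary markers were -2.50 to -1.96 in controls and 0.36 to 0.87 in DEN/TAA rats (7 listed, 5 tested, all 5 higher). Of these, Krt19, Spp1 and Cldn4 were above background on no control array. Summed levels of stellate and myofibroblast markers were -0.43 to -0.01 and 1.85 to 2.39 (10 listed, 9 tested, 7 higher). Among the 7, Tagln was above background on 1 control array and Dcn and Des on 2 each. Both sums take in these genes, and sums without them were not taken. Macrophage markers were higher for 7 of 9 listed genes and lower for 1. Of those called higher, Cd163 was above background on 0 control arrays and Csf1r on 1. Of 7 endothelial markers listed, 4 were tested and 3 were higher, with Esam above background on 1 control array. Their summed level was 0.10 to 1.14 in controls and 0.60 to 1.02 in DEN/TAA rats, inside the control range. Few markers of the other lists were bright enough to test, and several passed the filter only through the DEN/TAA arrays, so their counts are not read as a shift. For the same reason Krt19, Spp1, Cldn4, Cd163, Csf1r, Tagln, Dcn, Des and Esam are not read as a shift. Of 8 lymphocyte markers, 3 were tested, and Cd3g and Nkg7, called higher, were above background on 0 control arrays and 5 DEN/TAA arrays. The same held for Nefl, the gene called higher among 2 tested of 9 striated muscle and neuron markers. Of 8 proliferation markers, 3 were tested and called higher, with Ccnb1 above background on 0 control arrays, Cdk1 on 2 and Pcna on 5. The part of cell makeup in the results below was not tested. In whole liver, fewer cells of a type and less RNA per cell cannot be told apart.

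Most factor genes read higher in the DEN/TAA livers. Of the 54 tested, 31 rose (57.4%), 2 fell and 21 did not pass the threshold. Over all genes tested, 39.2% rose, 16.3% fell and 55.5% passed in either direction. The median difference was 0.65 over the factor genes and 0.33 over all genes, and 37 of the 54 lay above the all-gene median. In 26 factor genes every DEN/TAA rat read higher than every control, against 28.1% of all genes, and in 0 did every DEN/TAA rat read lower, against 11.4%. The rise was at least 2-fold in 11 genes, and all 31 that rose had a positive difference within each of the 3 slides. The slide count is no separate support, since the 31 were called on these same arrays. The shares of all genes beside these counts were not taken.

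The scaling of the arrays set how many of these rises passed. All genes together sat 0.33 higher in DEN/TAA livers, so each difference is read beside that value. Under 8 scalings the factor genes called higher numbered between 15, with each array centred on its all-gene median (21.9% of all genes higher), and 45, with arrays scaled to their spike-in RNA (65% of all genes higher). The number above the all-gene median moved less, between 36 and 43 of 54. The rise passed under all 8 scalings in 9 genes, which were Eif2b2, Eif2b3, Eif3c, Eif3m, Eif4a1, Eif4e, Eif4ebp1, Eef1e1 and Eef1g. In 26 of the 31 the difference stayed above 0 in all 8, and the other 5 were Eif2b1, Eif3h, Eif4g3, Eef1akmt1 and Eef2kmt. The shares of all genes that passed or stayed above 0 under all 8 scalings were not taken. These counts are therefore not read against the background.

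**Figure D1:**
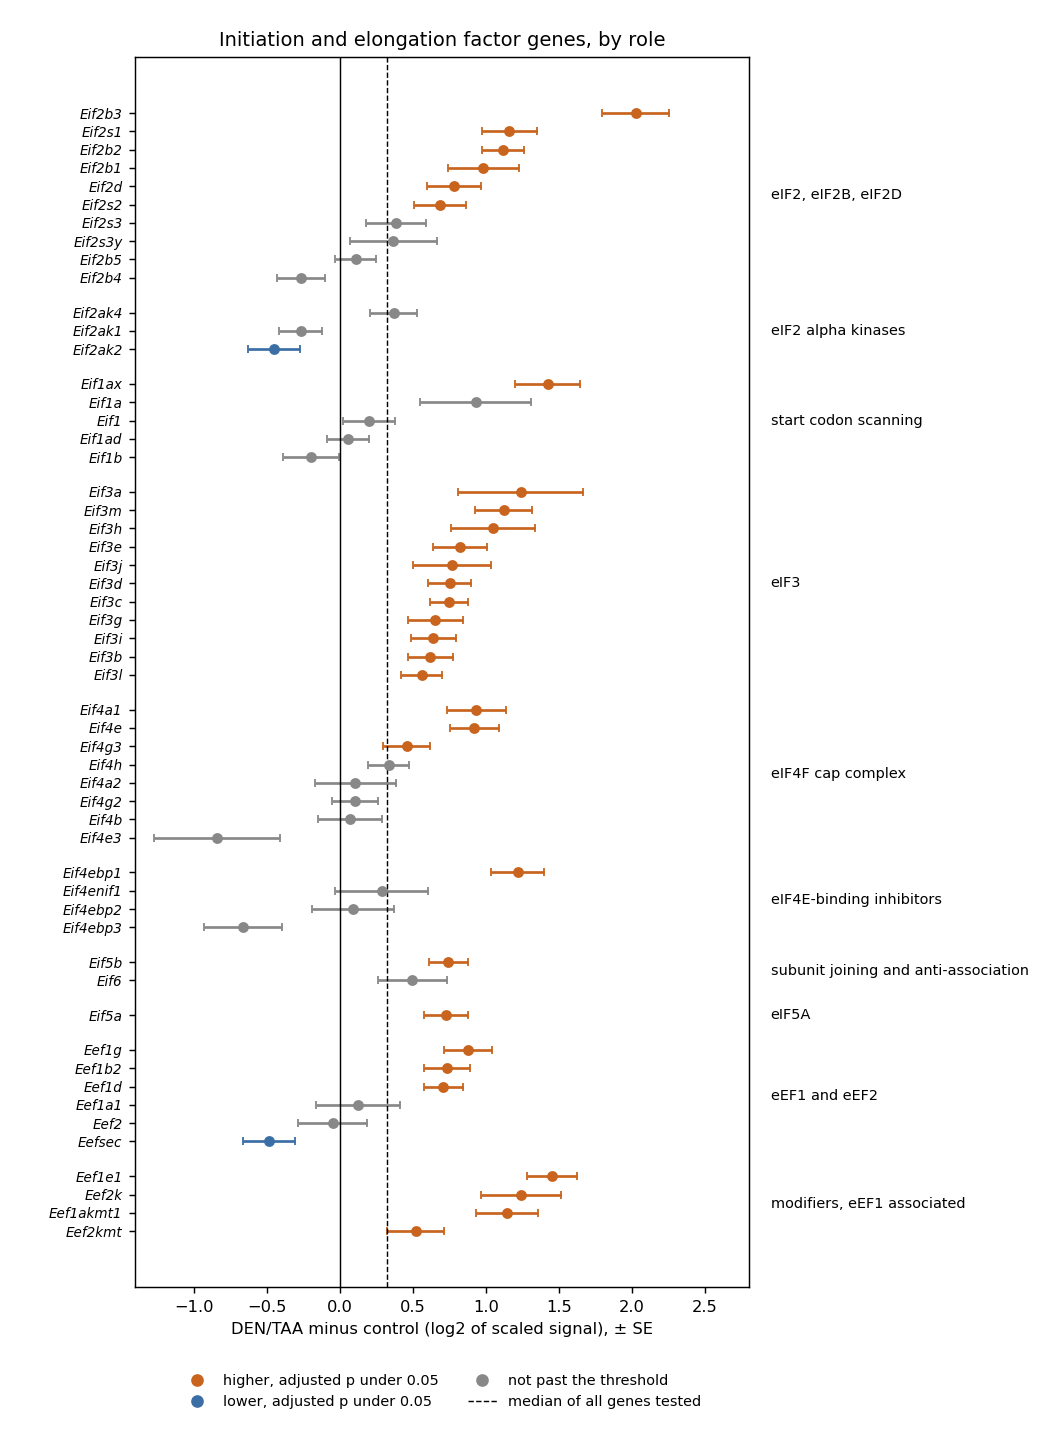
Difference between DEN/TAA and control livers (log2 of scaled signal, x axis) for each of the 54 tested genes (y axis), grouped by role; points are limma estimates from 5 rats a group, bars are ± 1 SE, the dashed line is the median of all genes tested (0.33). All 11 eIF3 subunits lie to the right of the dashed line, while the cap complex, its inhibitors and eIF2B hold genes on both sides of it.

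The RefSeq promoter table (assembly GRCr8, 250 bases before to 50 after each annotated start) held 48 of the 54 tested genes. Because so many of them read higher together, the promoters were searched on both strands for short motifs. The E-box CACGTG, the letters that Myc with Max and the related Tfe3 and Usf factors bind, was in 8 of 48 (16.7%), against 6.42% of all 33469 promoters and 9.72% of the 5677 promoters of tested genes. It was in 5 of the 27 promoters of genes that rose and 3 of the 21 others. These 30-base windows show 7 of the 8, with the E-box in capitals, each read 5′ to 3′ on the gene's own strand, and they are shown because they cover genes of several roles, including a kinase that rose and its substrate that did not.
Eef2k, chr1:184824331-184824360, plus strand: acccggggcagcCACGTGagcccgggcgtg
Eif3a, chr1:269918978-269919007, minus strand: ccgcgagggaatCACGTGgctccttccttt
Eif4e, chr2:229740504-229740533, plus strand: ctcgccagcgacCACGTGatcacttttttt
Eif5a, chr10:55143410-55143439, minus strand: aaggggcggggtCACGTGtgtgcgtcattg
Eif3b, chr12:19334808-19334837, minus strand: actcgctgcacgCACGTGgctccgcgctag
Eef2, chr7:9189297-9189326, minus strand: cacccgcgccgtCACGTGacgtgcccaacc
Eif4h, chr12:27719512-27719541, plus strand: tggccgccccacCACGTGggccgcagagcg
Of these, Eef2k, Eif3a, Eif4e, Eif5a and Eif3b rose, and Eef2 and Eif4h did not pass the threshold.

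A longer ETS-family motif, CCGGAAGT, was likewise in 8 of 48 promoters (16.7%), against 3.81% of all promoters and 9.49% of those of tested genes. Again 5 of 27 belonged to genes that rose and 3 of 21 to the others. The windows below carry it in capitals, as CCGGAAGT or as its reverse complement ACTTCCGG, and are shown because they include 2 subunits of eIF2B and 2 of eIF3.
Eif2b1, chr12:37686481-37686510, plus strand: aggtgcagtcgACTTCCGGcgctgacaagt
Eif2b2, chr6:110597951-110597980, plus strand: cctctctcgccCCGGAAGTgaaactggtct
Eif2d, chr13:45168116-45168145, plus strand: gaaaaccgggaCCGGAAGTtccggagtccg
Eif3d, chr7:111432852-111432881, minus strand: agctgtgacggACTTCCGGttgggtctcgc
Eif3i, chr5:147226953-147226982, minus strand: cgggcccttctACTTCCGGgagcgagaggg
Eif2ak1, chr12:15858217-15858246, minus strand: gctcttggggtACTTCCGGctcaggggagg
The first 5 of these genes rose and Eif2ak1 did not pass the threshold. The promoters of Eif1a and Eif1b, which did not pass either, also held the motif and are not shown. The other motifs searched were TGATGNAAN (the amino acid response element, 2 of 48 promoters against 2.25% of those of tested genes), GCATGCGC (4 of 48 against 5.41%), AAGATGGC (4 of 48 against 5.51%), CCAAT (13 of 48 against 39.5%) and GGGCGG (36 of 48 against 61.8%). A match is a description of letters, and no binding was measured.

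Many mRNAs of the translation machinery begin with a C and a run of pyrimidines, the 5′ terminal oligopyrimidine tract through which mTORC1 controls their translation. A run of at least 5 C or T letters that begins with C within 5 bases of the annotated start was in 9 of 48 promoters (18.8%), against 15.3% of those of tested genes. Of the 9 genes, 4 rose, against 39.2% of all genes. The run is in capitals in these windows, shown for 2 genes that rose and 2 that did not pass.
Eef1b2, chr9:72074085-72074114, plus strand: ggtcccggCCCTTTTTCTCCCTCagcgctg
Eif3m, chr3:111897169-111897198, minus strand: tgtggtaccgCTCCTTTTCCggtcggcgtg
Eef1a1, chr8:88225053-88225082, minus strand: gccttggacgttCTTTTTCgcaacgggttt
Eif2s3, chrX:62933675-62933704, minus strand: gagcattttCCTTTTCTCTCTgagcaagat
Eef1b2 and Eif3m rose, and Eef1a1 and Eif2s3 did not pass. In each the run begins within 5 bases of the annotated start, and translation was not measured.

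The eIF2 group holds the 3 subunits of eIF2, the 5 of its exchange factor eIF2B, which reloads eIF2 with GTP, and Eif2d, which can deliver initiator tRNA without eIF2. Of its 10 tested genes 6 rose (60%, against 39.2% of all genes), 0 fell and 4 did not pass. The median difference was 0.73. Within eIF2B, Eif2b1, Eif2b2 and Eif2b3 rose, while Eif2b4 and the catalytic subunit Eif2b5 did not pass. Within eIF2, the alpha subunit Eif2s1 and the beta subunit Eif2s2 rose, while the gamma subunit genes Eif2s3 and Eif2s3y did not pass.

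Eif2b3, the gamma subunit of eIF2B, showed the largest difference of any tested factor gene. It read -5.29, -5.32, -4.30, -4.74 and -5.15 in controls 1 to 5 and -2.99, -2.71, -3.35, -3.03 and -2.60 in DEN/TAA rats 1 to 5. Every DEN/TAA rat was well above every control, and the difference was 2.02 ± 0.23 (SE, 5 rats a group, adjusted p = 2.44e-05), or 4.07-fold. Its probe was well above background on 2 of 5 control arrays, and raising the other 3 to those arrays' detection floor left a difference of 1.61. The gene's other probe gave 1.60.

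Eif2b2, the beta subunit, read -2.70, -3.11, -2.86, -2.57 and -2.70 in the controls and -1.76, -1.65, -1.70, -1.74 and -1.52 in the DEN/TAA rats. The groups lay far apart and the DEN/TAA rats agreed closely, with a difference of 1.12 ± 0.14 (SE, adjusted p = 6.06e-05). Eif2b1, the alpha subunit, rose by 0.98 ± 0.24 (SE, adjusted p = 0.00521), but its probe was above background on only 1 control array, and with undetected arrays at the floor the difference was 0.34 and did not pass (adjusted p = 0.447). Under normexp background correction with 75th-percentile scaling the Eif2b1 difference was -0.27. Eif2b5 read -2.53, -2.52, -2.37, -2.30 and -2.74 in the controls and -2.38, -2.34, -2.49, -2.54 and -2.16 in the DEN/TAA rats, and the groups overlapped throughout (0.11 ± 0.14, SE, adjusted p = 0.54). Eif2b4, the delta subunit, differed by -0.26 ± 0.16 (SE, adjusted p = 0.195) and was called lower under 4 of the 8 scalings.

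Eif2s1 encodes the subunit on which eIF2 is phosphorylated. It read -4.38, -4.72, -4.38, -4.12 and -4.71 in the controls and -3.07, -3.37, -3.82, -3.13 and -3.12 in the DEN/TAA rats. The groups did not overlap, DEN/TAA 3 was nearest to the controls, and the difference was 1.16 ± 0.19 (SE, adjusted p = 0.00033). It was above background on 3 control arrays, and the difference was 0.97 with the others at the floor. Eif2s2 rose by 0.69 (adjusted p = 0.00627). Eif2s3 differed by 0.39 (adjusted p = 0.129), where its 3 probes disagreed (0.39, 0.07 and -0.04), and Eif2s3y, the copy on the Y chromosome, by 0.37 (adjusted p = 0.315). Eif2d rose by 0.78 (adjusted p = 0.0038).

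The eIF2 alpha kinases slow initiation under stress. Of 3 tested, 0 rose (39.2% of all genes) and 1 fell (16.3% of all genes), with a median difference of -0.27. Eif2ak1, the heme-regulated kinase, read -1.39, -0.88, -1.20, -1.35 and -1.49 in the controls and -1.63, -1.41, -1.48, -1.50 and -1.62 in the DEN/TAA rats. DEN/TAA 2 and 3 lay within the control range and the other 3 just below it. The difference of -0.27 did not pass (adjusted p = 0.144), although it was called lower under 5 of the 8 scalings. Eif2ak2, the kinase activated by double-stranded RNA, read -3.52, -3.56, -4.01, -3.48 and -3.66 in the controls and -4.16, -4.01, -4.58, -3.91 and -3.82 in the DEN/TAA rats. The groups overlapped through control 3, and the gene fell by 0.45 on the log2 scale (adjusted p = 0.0491). That call was lost without any of controls 1, 2, 4 or 5 or DEN/TAA 1 to 4, with differences between -0.54 and -0.33 over all leave-one-out fits and an adjusted p of up to 0.122, with slide as a block it was -0.37 (adjusted p = 0.0733), and under spike-in scaling the difference was 0.21. Eif2ak4, the kinase that senses uncharged tRNA, read -4.18, -4.07, -4.55, -3.89 and -4.31 in the controls and -3.96, -4.01, -3.84, -3.79 and -3.56 in the DEN/TAA rats. Its groups overlapped at DEN/TAA 1 and 2 and the difference was 0.37 (adjusted p = 0.0703). It passed without control 4 (0.45, adjusted p = 0.0411) and with slide as a block (0.42, adjusted p = 0.0388).

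The scanning factors keep the small subunit open until it meets a start codon. Of 5 tested, 1 rose (20%, against 39.2% of all genes). Eif1ax, which encodes eIF1A, read -4.49, -4.03, -5.21, -4.97 and -4.38 in the controls and -3.32, -3.30, -3.26, -2.82 and -3.28 in the DEN/TAA rats. Every DEN/TAA rat lay above every control, DEN/TAA 4 highest and the others close together, and the difference was 1.42 ± 0.22 (SE, adjusted p = 0.000261). The paralogue Eif1a differed by 0.93 ± 0.38 (SE, adjusted p = 0.0559) with no overlap between the groups, where control 5 lay far below the rest. That difference passed without control 5 (0.51, adjusted p = 0.0217) and without control 1 (1.07, adjusted p = 0.044). Eif1, the start codon fidelity factor, read 3.05, 3.18, 3.12, 3.59 and 3.68 in the controls and 3.35, 3.24, 3.57, 3.61 and 3.84 in the DEN/TAA rats, which overlapped (0.20, adjusted p = 0.361, called higher under 4 of the 8 scalings). Its paralogue Eif1b read -3.00, -3.04, -2.92, -3.06 and -3.44 in the controls and -3.38, -3.61, -3.55, -3.16 and -2.73 in the DEN/TAA rats, where DEN/TAA 5 alone was above every control (-0.20, adjusted p = 0.402, called lower under 3 of the 8 scalings). Eif1ad differed by 0.06 (adjusted p = 0.751).

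eIF3 is the largest initiation factor and the platform on which the other factors meet the small subunit. All 11 subunit genes tested rose, against 39.2% of all genes, with differences from 0.56 (Eif3l) to 1.24 (Eif3a) and a median of 0.75. In 8 of the 11 the groups did not overlap, with every DEN/TAA rat higher, against 28.1% of all genes. The core subunits Eif3a, Eif3b and Eif3c rose by 1.24, 0.62 and 0.75, and the core-associated Eif3g and Eif3i by 0.66 and 0.64. Of the outer subunits, Eif3d rose by 0.75, Eif3e by 0.82, Eif3h by 1.05, Eif3l by 0.56 and Eif3m by 1.12, and the loosely bound Eif3j rose by 0.77.

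The median level of the 11 eIF3 genes was -1.49, -1.51, -1.22, -1.67 and -2.02 in controls 1 to 5 and -0.59, -0.36, -0.60, -0.67 and -1.07 in DEN/TAA rats 1 to 5. Every DEN/TAA rat was above every control on this scale. Set against the median of all tested genes in the same rat, the eIF3 median was 1.28 to 1.99 higher in controls and 1.79 to 2.52 higher in DEN/TAA rats, so that DEN/TAA 5 fell within the control range. The number of eIF3 genes called higher was 11 under the scaling used here and under spike-in scaling (65% of all genes), 9 under normexp with quantile scaling (30%) and 8 in the authors' table (29.7%). It was 6 under quantile scaling (28.3%) and under normexp with the 75th percentile (12.8%), 3 with arrays centred on the all-gene median (21.9%) and 2 with the 75th percentile over all probes (23.6%). All 11 lay above the all-gene median under each scaling but normexp with the 75th percentile, where 10 did and Eif3h, at -0.30, did not.

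Eif3m read -1.49, -1.28, -1.02, -0.62 and -0.69 in the controls and 0.16, -0.17, -0.03, 0.23 and 0.32 in the DEN/TAA rats. Every DEN/TAA rat lay above the highest control, and the difference was 1.12 ± 0.19 (SE, adjusted p = 0.000507). Eif3c varied little between rats, with controls between 0.64 and 0.71 and DEN/TAA rats between 1.13 and 1.54. Eif3a, the scaffold subunit, read -1.12, -1.51, -0.48, -2.17 and -2.88 in the controls and -0.43, -0.17, -0.05, 0.13 and -1.44 in the DEN/TAA rats. It varied widely within each group, the groups overlapped as DEN/TAA 5 lay below controls 1 and 3, and the difference was 1.24 ± 0.43 (SE, adjusted p = 0.0288). The Eif3a call was lost without controls 4 or 5 or DEN/TAA 1, 2, 3 or 4 (differences of 0.93 to 1.53 over all leave-one-out fits, adjusted p of up to 0.0697). The Eif3j call was lost without controls 1 or 2 or DEN/TAA 1, 4 or 5 (0.60 to 0.89, adjusted p of up to 0.0695). Eif3h was above background on 3 control arrays, and its difference was 0.59 with the others at the floor.

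**Figure D2:**
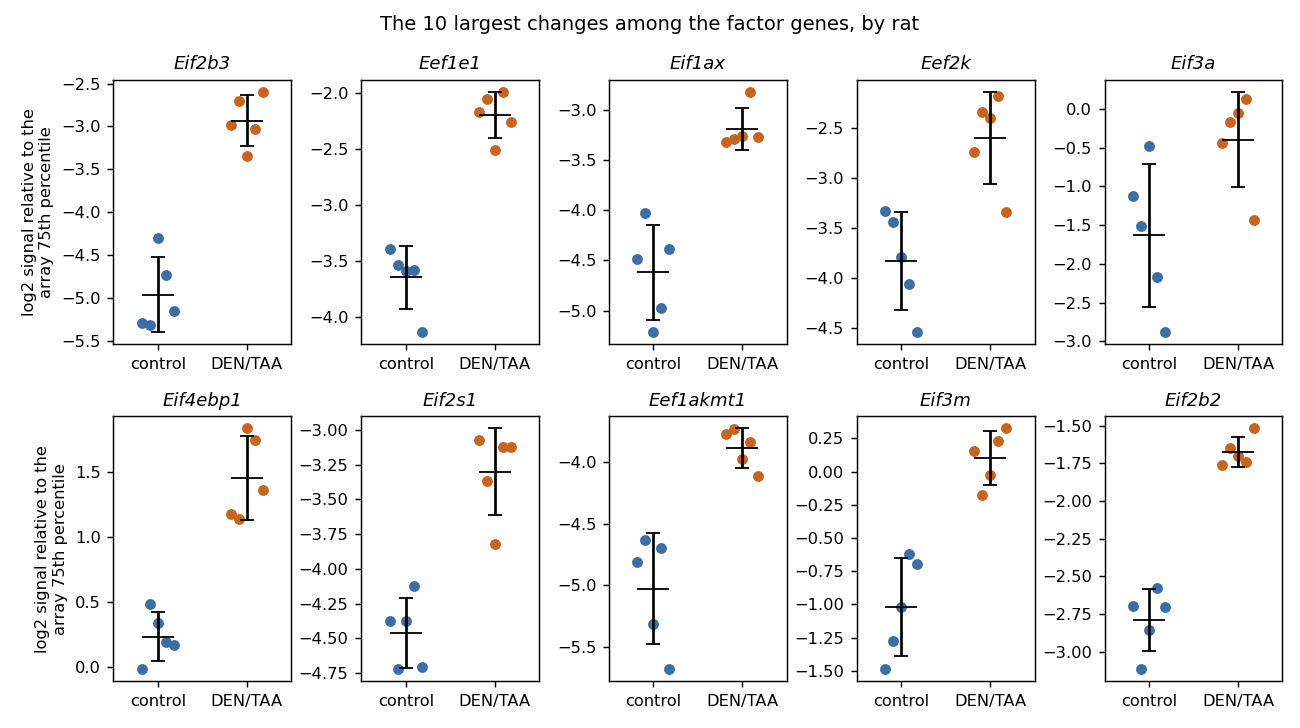
Level in each rat (log2 signal relative to the array's 75th percentile, y axis; each panel has its own range) of the 10 factor genes with the largest differences past the threshold, in 5 control (blue) and 5 DEN/TAA (orange) rats; the horizontal mark is the group mean and the bar ± 1 SD. In 8 of the panels the groups do not overlap, and in Eef2k and Eif3a they do.

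The eIF4F complex binds the mRNA cap (eIF4E), bridges it to the ribosome (eIF4G) and unwinds the leader (eIF4A, helped by eIF4B and eIF4H). Of 8 tested genes 3 rose (37.5%, near the 39.2% of all genes) and 5 did not pass. The median difference was 0.22, below that of all genes. The 3 were Eif4e, Eif4a1 and the scaffold Eif4g3. Eif4g2, a scaffold relative that does not bind eIF4E, differed by 0.11 (adjusted p = 0.592) on its brightest probe and by 0.36 to 0.87 on its 4 other probes, with a mean over all 5 probes of 0.55 that passed (adjusted p = 0.00627). Eif4b differed by 0.07 (adjusted p = 0.807) and Eif4h by 0.33 (adjusted p = 0.061), which passed without control 5 (0.39, adjusted p = 0.0354) and with slide as a block (0.38, adjusted p = 0.0329).

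Eif4e read -2.16, -1.88, -1.80, -2.29 and -2.27 in the controls and -1.18, -1.03, -1.39, -0.84 and -1.34 in the DEN/TAA rats. The groups did not overlap and the difference was 0.92 ± 0.16 (SE, adjusted p = 0.000634), while the gene's dimmer probe gave 0.40. Eif4e3, a cap-binding relative, read -3.99, -2.59, -3.73, -5.01 and -3.47 in the controls and -4.33, -3.51, -4.79, -5.13 and -5.20 in the DEN/TAA rats. Its values were scattered and overlapping (-0.84 ± 0.43, SE, adjusted p = 0.12), and this probe was above background on 3 control arrays. The gene's other probes were not well above background on any control array. They differed in the other direction, by 0.63 and 1.95, and the mean over all probes was 0.58 (adjusted p = 0.0707). The direction of Eif4e3 is therefore not settled. The brightest probe was called lower under 6 of the 8 scalings, without control 4 (-1.15, adjusted p = 0.0259) and without DEN/TAA 2 (-1.11, adjusted p = 0.0445). Eif4g3 read -3.16, -3.05, -3.15, -3.51 and -3.10 in the controls and -2.68, -2.54, -2.63, -2.70 and -3.14 in the DEN/TAA rats. Only DEN/TAA 5 lay in the control range, and the rise was 0.46 (adjusted p = 0.0284). It was lost without control 4 or any of DEN/TAA 1 to 4 (0.38 to 0.56 over all leave-one-out fits, adjusted p of up to 0.0716) and was -0.07 in the authors' table, -0.07 under normexp with quantile scaling and -0.21 under normexp with the 75th percentile.

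The paralogous helicases parted. Eif4a1 read 0.93, 0.99, 1.74, 1.45 and 1.68 in the controls and 1.89, 2.31, 2.32, 2.46 and 2.50 in the DEN/TAA rats. The groups did not overlap, the difference was 0.93 ± 0.20 (SE, adjusted p = 0.00229), and the gene's 5 probes gave 0.93 to 1.58. Eif4a2 read -0.42, 0.15, -0.06, 0.58 and 1.09 in the controls and 0.13, 0.17, 0.10, 0.60 and 0.87 in the DEN/TAA rats, all of which lay inside the control range (0.11 ± 0.28, SE, adjusted p = 0.767). Eif4a1, like Eef1a1, has near-identical copies in the genome whose transcripts the probes may also read, so its levels are uncertain in that respect.

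Of the 4 eIF4E-binding inhibitors, which compete with eIF4G for eIF4E, 1 rose (25%, against 39.2% of all genes) and 3 did not pass. Eif4ebp1, whose protein is released from eIF4E when mTORC1 phosphorylates it, read -0.01, 0.49, 0.34, 0.19 and 0.17 in the controls and 1.18, 1.14, 1.83, 1.75 and 1.36 in the DEN/TAA rats. All DEN/TAA rats were well above all controls, and the difference was 1.22 ± 0.18 (SE, adjusted p = 0.000167), with 1.05 on its other probe. Eif4ebp2 read -1.75, -1.14, -1.01, -2.03 and -1.89 in the controls and -1.42, -1.62, -0.98, -1.08 and -2.28 in the DEN/TAA rats, which overlapped widely (0.09 ± 0.28, SE, adjusted p = 0.807). Eif4ebp3 read -2.88, -2.88, -2.05, -1.99 and -1.53 in the controls and -3.25, -3.16, -2.76, -2.67 and -2.80 in the DEN/TAA rats. It lay lower in the treated rats with some overlap at controls 1 and 2, and did not pass (-0.66 ± 0.27, SE, adjusted p = 0.0525), although it was called lower under 6 of the 8 scalings. It also passed without control 1 or control 2 (each -0.81, adjusted p = 0.0209 and 0.0229) and with slide as a block (-0.63, adjusted p = 0.00915). Eif4enif1, the partner that carries eIF4E into the nucleus, differed by 0.29 (adjusted p = 0.465).

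At subunit joining, Eif5b, the GTPase that brings the large subunit in, read -3.04, -2.90, -2.79, -2.87 and -2.94 in the controls and -2.22, -2.14, -2.40, -2.00 and -2.06 in the DEN/TAA rats. The groups were tight and apart, and the difference was 0.74 ± 0.13 (SE, adjusted p = 0.000646). Eif6, which keeps the large subunit from joining too early, read -0.40, -0.63, -0.74, -1.12 and -0.96 in the controls and -0.23, 0.21, -0.76, 0.17 and -0.75 in the DEN/TAA rats. DEN/TAA 3 and 5 lay among the controls, and the difference of 0.50 did not pass (adjusted p = 0.0922), but did without DEN/TAA 5 (0.62, adjusted p = 0.044). Eif5a, the hypusine-bearing factor that helps ribosomes past difficult stretches, read 1.56, 1.09, 1.38, 1.37 and 1.09 in the controls and 2.08, 2.02, 2.08, 2.21 and 1.73 in the DEN/TAA rats. It rose without overlap, by 0.73 ± 0.15 (SE, adjusted p = 0.00192).

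Among the elongation factors proper, 3 of 6 tested genes rose (50%, against 39.2% of all genes), 1 fell (16.3% of all genes) and 2 did not pass. The 3 that rose encode the complex that recharges eEF1A with GTP. The 2 that did not pass encode the factors that work on the ribosome at each step. This split was described after its values were seen. Eef1b2 rose by 0.73 ± 0.16 (SE, adjusted p = 0.00221), Eef1d by 0.71 ± 0.13 (SE, adjusted p = 0.000947) and Eef1g by 0.88 ± 0.17 (SE, adjusted p = 0.000922), each without overlap (28.1% of all genes). Eef1a1 read 2.46, 2.53, 2.21, 2.52 and 0.95 in the controls and 2.13, 1.99, 2.23, 2.51 and 2.42 in the DEN/TAA rats. Control 5 was far below all other rats, and the difference was 0.12 with it and -0.17 without it (adjusted p = 0.742 over all rats). Within each array, Eef1b2 minus Eef1a1 was -1.54 to 0.54 in the controls and -0.48 to -0.23 in the DEN/TAA rats. Eef1d minus Eef1a1 was -1.38 to 0.58 and -0.39 to 0.22, and Eef1g minus Eef1a1 was -0.89 to 1.325 and 0.12 to 1.03. All DEN/TAA rats thus lay inside the control ranges, whose upper ends were control 5. These within-array differences were described only and not tested. Eef2 read 2.20, 1.39, 1.83, 2.63 and 2.01 in the controls and 1.78, 1.69, 1.90, 1.94 and 2.50 in the DEN/TAA rats, which overlapped (-0.05 ± 0.24, SE, adjusted p = 0.876). Eefsec, which delivers selenocysteine tRNA, fell by 0.49 on the log2 scale (adjusted p = 0.0354), with overlap between the groups. That call was lost without controls 1, 2 or 3 or DEN/TAA 1, 4 or 5 (-0.56 to -0.40 over all leave-one-out fits, adjusted p of up to 0.0812), the mean over both probes gave -0.10, and spike-in scaling gave 0.18.

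All 4 tested genes that modify elongation factors or bind eEF1 rose, against 39.2% of all genes, with a median difference of 1.19. None was above background on all 5 control arrays (3 for Eef1akmt1 and 4 for each of the others). Eef1e1, a scaffold protein of the multi-synthetase complex that also binds eEF1, read -3.39, -3.53, -3.59, -3.58 and -4.13 in the controls and -2.17, -2.05, -2.50, -1.99 and -2.25 in the DEN/TAA rats. The groups were well apart, and the difference was 1.45 ± 0.17 (SE, adjusted p = 3.69e-05). Eef2k, the kinase that inactivates eEF2, read -3.33, -3.44, -3.79, -4.06 and -4.54 in the controls and -2.73, -2.33, -2.40, -2.17 and -3.33 in the DEN/TAA rats. DEN/TAA 5 met the highest control and the other DEN/TAA rats were above it (1.24 ± 0.28, SE, adjusted p = 0.00262).

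Eef1akmt1, a lysine methyltransferase of eEF1A, read -4.81, -4.63, -5.32, -4.70 and -5.68 in the controls and -3.77, -3.73, -3.97, -3.84 and -4.11 in the DEN/TAA rats. It rose without overlap (1.14 ± 0.21, SE, adjusted p = 0.000814), was above background on 3 control arrays, gave 0.72 with the others at the floor and was -0.10 under normexp with the 75th percentile. Eef2kmt, a lysine methyltransferase of eEF2, rose by 0.52 (adjusted p = 0.0414) with overlap between the groups. The Eef2kmt call was lost without controls 2, 4 or 5 or DEN/TAA 1, 2 or 3 (0.38 to 0.62 over all leave-one-out fits, adjusted p of up to 0.1). Its difference was 0.44 with slide as a block (adjusted p = 0.0525), 0.23 with undetected arrays at the floor (adjusted p = 0.392) and -0.32 under normexp with the 75th percentile.

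**Figure D3:**
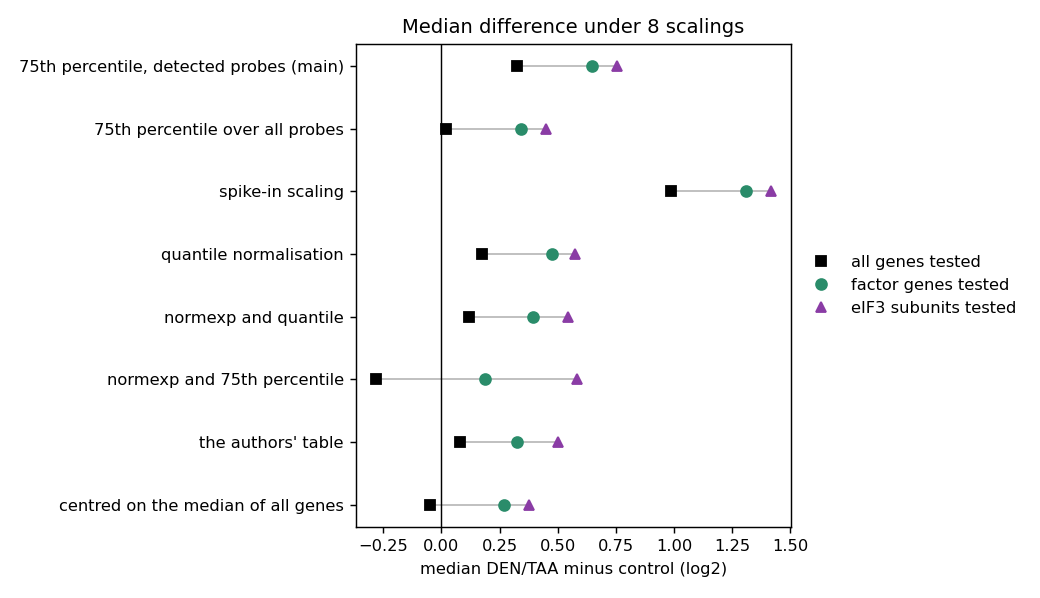
Median difference between DEN/TAA and control livers (log2, x axis) over all 6849 genes tested (black squares), the 54 factor genes (green circles) and the 11 eIF3 genes (purple triangles) under 8 ways of scaling the arrays (y axis). The position of all 3 medians moves with the scaling, and in each scaling the factor genes lie to the right of all genes and the eIF3 genes to the right of both.

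Pairs of related genes were also compared within each array, where a shift of the whole array cancels. Of 18 pairs listed, 11 had both genes tested, and the per-rat difference between the genes was compared between the groups with a two-sided exact permutation test over 252 assignments (smallest possible p 0.00794), adjusted over the 11 pairs. In 7 of the 11 the pair shifted. The pairs share genes and arrays and were listed with earlier results of these data known.

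The log2 signal of Eif4a2 minus that of Eif4a1 was -1.09 ± 0.48 (SD, n = 5) in the controls and -1.92 ± 0.25 (SD, n = 5) in the DEN/TAA rats, of which only the change between the groups can be read, a shift of -0.83 (exact permutation p = 0.0238, adjusted p = 0.0437). The genes of this pair moved apart with overlap between the groups, and with the mean over all probes the shift was -1.22 with an adjusted p of 0.0728. Eif4ebp2 against Eif4ebp1 shifted by -1.13 and Eif4ebp3 against Eif4ebp1 by -1.88 (each exact permutation p = 0.00794, adjusted p = 0.0291), without overlap between the groups. Eif4ebp1 against Eif4e shifted by 0.30 and did not pass (exact permutation p = 0.159, adjusted p = 0.194), while under quantile scaling, normexp with quantile scaling and in the authors' table it shifted by 0.49, 0.60 and 0.65 and passed (adjusted p = 0.0499, 0.0249 and 0.0125). Eif4e3 against Eif4e shifted by -1.76 (exact permutation p = 0.0159, adjusted p = 0.0349), but by -0.08 with the mean over all probes, which takes in the 2 Eif4e3 probes undetected on the control arrays.

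Eif2b5 against Eif2s1, the exchange subunit against the subunit of its substrate, shifted by -1.05 without overlap (exact permutation p = 0.00794, adjusted p = 0.0291). Eif2s1 was above background on 3 control arrays, so part of this shift rests on undetected values. Eif2ak4 against Eif2ak1 shifted by 0.64 (exact permutation p = 0.0159, adjusted p = 0.0349), and by 0.45, 0.33 and 0.27 without passing under quantile scaling, normexp with quantile scaling and in the authors' table. Eif2ak2 against Eif2ak1 shifted by -0.18 (exact permutation p = 0.413, adjusted p = 0.413). Eef2k against its substrate Eef2 shifted by 1.29 (exact permutation p = 0.0317, adjusted p = 0.0499), with DEN/TAA 5 in the control range. That shift was 0.90, 0.73 and 0.45 under the same 3 alternatives, and did not pass there. Eif1b against Eif1 shifted by -0.40 (exact permutation p = 0.111, adjusted p = 0.153) and passed under those 3, at -1.02, -0.75 and -0.74. Eif6 against Eif5b shifted by -0.25 (exact permutation p = 0.349, adjusted p = 0.384).

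Leaving out DEN/TAA 1, DEN/TAA 3 or DEN/TAA 4 brought the pairs past the threshold from 7 to 2 each time. The pairs that passed in all 3 cases were Eif4ebp2 against Eif4ebp1 and Eif2b5 against Eif2s1. Without the 2 dimmest control arrays 0 of the 11 passed, where 3 rats against 5 allow no p below 0.0179.

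**Figure D4:**
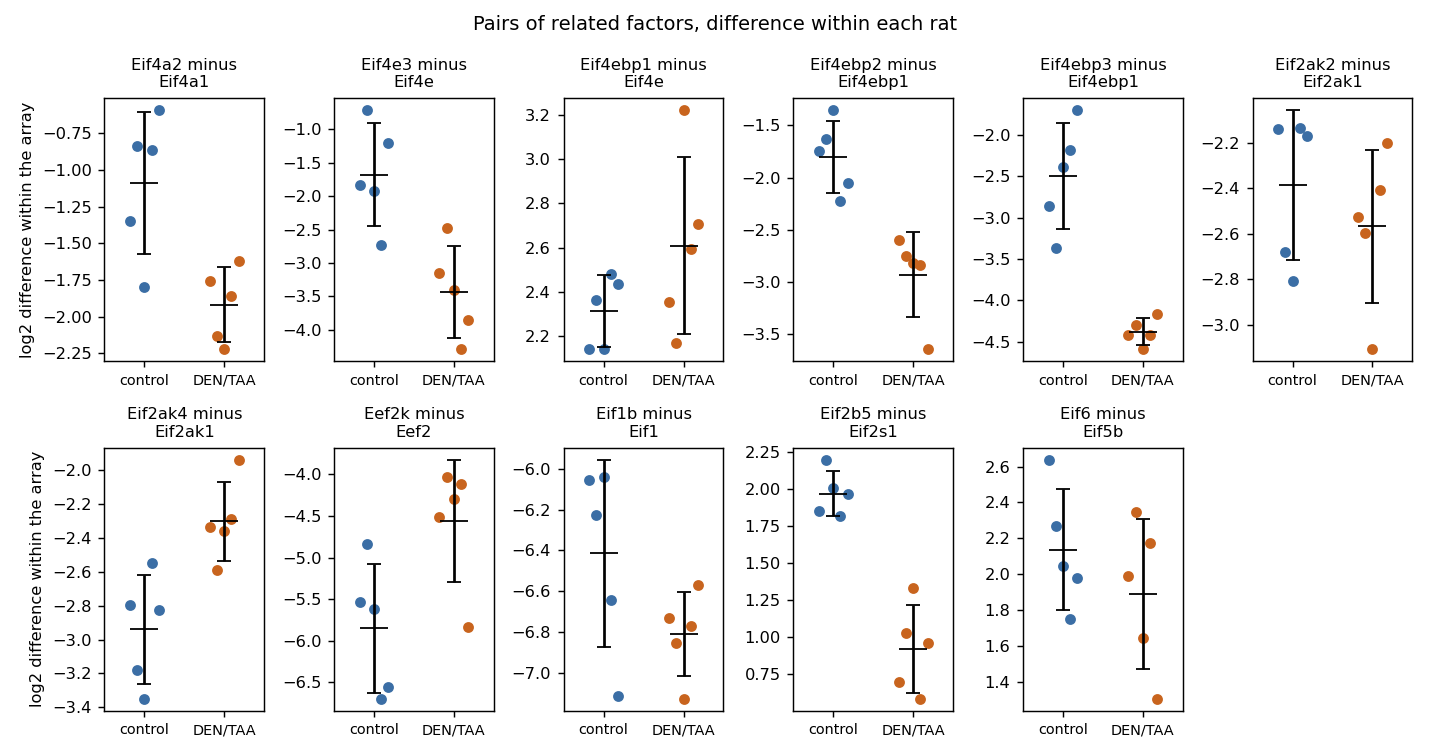
Difference in log2 signal between the 2 genes of each pair within each array (y axis; each panel has its own range) for the 11 pairs tested, in 5 control (blue) and 5 DEN/TAA (orange) rats, with the group mean and ± 1 SD. The groups are apart for Eif4ebp2 and Eif4ebp3 against Eif4ebp1 and for Eif2b5 against Eif2s1, and they overlap for every other pair. The overlapping pairs include Eif4a2 against Eif4a1, Eif4e3 against Eif4e, Eif2ak4 against Eif2ak1 and Eef2k against Eef2, which passed the threshold.

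Other genes of the pathway were counted from 5 lists of factors outside the Eif and Eef names. Of 55 listed, 33 were tested, 14 rose (42.4%, against 39.2% of all genes) and 0 fell, with a median difference of 0.40 against 0.33 over all genes, so the lists as a whole lay near the background. Among cap and poly(A) factors and the mTORC1 arm, 5 of 8 rose, with the smallest adjusted p for the poly(A)-binding protein Pabpc1 (1.13, adjusted p = 3.08e-05) and Rheb, the GTPase that activates mTORC1 (0.92, adjusted p = 0.000458). Among release, recycling and reinitiation factors, 5 of 8 rose, with the smallest adjusted p for the ribosome rescue factor Pelo (1.07, adjusted p = 0.00231) and the reinitiation factor Denr (0.72, adjusted p = 0.00271). In the eIF2 phosphatase and stress arm, 2 of 7 rose, Ppp1r15a, which directs the phosphatase to eIF2 (0.96, adjusted p = 0.00315), and the catalytic subunit Ppp1ca (0.40, adjusted p = 0.028). The transcription factor Atf4, whose mRNA is translated when eIF2 is phosphorylated, differed by -0.03 (adjusted p = 0.889). Among genes that make diphthamide on eEF2 and hypusine on eIF5A, 2 of 4 rose, both in the diphthamide pathway, Dph5 (1.26, adjusted p = 0.000443) and Dph1 (0.54, adjusted p = 0.00462). Of 6 mitochondrial translation factors, 0 rose and 0 fell, with a median difference of 0.25.

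For comparison, 58 of 75 cytosolic ribosomal protein genes rose (77.3%) and 0 fell (median 0.61). Of 16 tested cytosolic aminoacyl-tRNA synthetase genes, 6 rose (37.5%, near the 39.2% of all genes) and 3 fell (median 0.38). The factor genes, at 31 of 54 and a median of 0.65, stood near the ribosomal proteins in median, and the differences between the lists were not tested. The median level of the 54 factor genes relative to the all-gene median of the same rat was 0.74 to 1.21 in controls and 0.91 to 1.07 in DEN/TAA rats, so on that measure the groups overlapped.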

How the data were processed

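Liver RNA of 10 rats was hybridised to Agilent whole rat genome 4x44K arrays in 1 colour (150 ng of RNA per array, per the labels). The deposited scanner files hold spot intensity, background-subtracted within the array and not scaled between arrays, written, per the file headers, by Agilent Feature Extraction 11.5.1.1 (15.5 in the submitters' processing notes). A table of log2 values by the authors ranks spots as their raw median signal does (rho of 1), and its column medians were 8.592 to 8.594. Signal scaled between arrays without background subtraction would read so, but these values do not tell which scaling was used. How the table was made is not given in these sources, and it served as an alternative. The number of arrays limits the precision, and p-values measure the spread between these rats, which the labels number as replicates.

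Control spots and outlier spots were left out and spots of a probe averaged. Of 41012 probes, 17502 matched 1 RefSeq gene (GRCr8), 0 several and 23510 none. The log2 signal minus the array's 75th percentile (over 6229 probes well above background on all arrays) was tested where a probe was above background on at least 5 arrays, with each gene's brightest such probe, by limma 3.58.1 in R 4.3.3, without covariates. The script was tested on simulated data. The 8 scalings were this one, the 75th percentile over all probes, spike-in, quantile, normexp (offset 50, on the median spot signal) followed by quantile or the 75th percentile, the authors' table, and centring on the all-gene median. Other alternatives were the filter, the mean over probes, slide or replicate number as blocks, a trended prior, undetected arrays raised to the lowest detected signal, and leaving out rats. Every tested factor gene is named, with all values for the 10 largest changes and the paired genes, and up to 2 genes per direction for each other list; Atf4 was added after its value was seen. The gene set, lists and pairs were chosen with earlier results of these data known.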

Additional observations from a re-analysis of the deposited data

Results flagged for a closer look

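In 11 of 130 groups of 5 rats checked, the rat at one end lay so far from its nearest neighbour that the gap made up over 0.71 of the group's range, where chance gives about 1 in 20 groups. Control 5, the dimmest array, was the low rat in 4 of them: Eif1a (-5.76 against -3.87 for the next rat, a gap of 0.846 of the range), Eef1a1 (0.95 against 2.21, 0.797), Eif1b (-3.44 against -3.06, 0.737) and Eef1e1 (-4.13 against -3.59, 0.736). DEN/TAA 5 was the low rat in 3, Eif4g3 (-3.14 against -2.70, 0.724) and the within-array differences of Eif4ebp2 minus Eif4ebp1 (-3.64 against -2.83, 0.773) and Eef2k minus Eef2 (-5.83 against -4.52, 0.728).

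DEN/TAA 4 was high for Eif1ax (-2.82 against -3.26, 0.873). DEN/TAA 1 was low for Eif3c (1.13 against 1.45, 0.782), control 1 for Eif4g2 (-0.13 against 0.34, 0.726) and control 4 for Eif4g3 (-3.51 against -3.16, 0.754). The cause of these gaps was not tested.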

How the results depend on the processing

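The direction of the count held and its size did not. With the 75th percentile over all probes, 16 factor genes were called higher and 6 lower, with arrays centred on the all-gene median 15 and 7, under normexp with the 75th percentile 17 and 6, and under spike-in scaling 45 and 0. Quantile scaling called 7 lower, normexp with quantile 5, the table by the authors called 4, no filter 0, the mean over probes 1, undetected arrays at the floor 1, and leaving out the 2 dimmest control arrays 1. Their median difference was 0.34 (all-probe percentile), 1.31 (spike-in), 0.47 (quantile), 0.40 (normexp with quantile), 0.19 (normexp with the 75th percentile), 0.32 (authors' table) and 0.27 (centred). eIF3 genes called higher numbered 2, 6, 6 and 3 under the all-probe percentile, quantile, normexp with the 75th percentile and centring. Of the associated genes, the all-probe percentile called 6 higher and 1 lower, spike-in 31 higher, normexp with the 75th percentile 8 and 1, centring 6 and 2, quantile 1 lower, normexp with quantile 1 lower, and no filter 6 lower. Pairs past the threshold numbered 4 with the mean over probes and 0 without the 2 dimmest control arrays.

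Over all genes, 2685 were called higher and 1116 lower here, against 4449 and 394 under spike-in scaling, 1613 and 1597 with the all-probe percentile, 1940 and 1353 with quantile scaling, 2052 and 1339 with normexp and quantile, 880 and 1949 with normexp and the 75th percentile, 2032 and 1315 in the authors' table, 1499 and 1835 when centred, and 2590 and 5801 of 13825 without the filter. Their median difference moved from 0.33 to 0.99, 0.02, 0.18, 0.12, -0.28, 0.08 and -0.05 under the first 7 of these.

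Called genes whose sign turned were Eef1akmt1 (-0.10), Eef2kmt (-0.32), Eif2b1 (-0.27), Eif3h (-0.30) and Eif4g3 (-0.21) under normexp with the 75th percentile, Eif4g3 under normexp with quantile (-0.071) and in the authors' table (-0.072), and Eefsec (0.18) and Eif2ak2 (0.21) under spike-in scaling; sign changes where neither value passed were not counted. The cause was not tested. Leaving out each rat gave 27 to 31 genes higher and 0 to 2 lower, 9 to 11 eIF3 genes, 12 to 15 associated genes higher and 0 to 1 lower, a median of 0.58 to 0.68 and 2 to 7 pairs; 27 of the 31 rises held in every such fit. With slide as a block, 32 were higher and 2 lower.

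Same-numbered rats of the groups did not pair: their deviations correlated at 0.09, 0.10, 0.21, -0.22 and 0.11, and numbers 1 and 4 correlated best with another number. The replicate block gave 32 higher and 4 lower. Alternatives chosen after seeing the data were normexp with the 75th percentile, centring, the floor, the dimmest arrays, and those of the eIF3 and associated counts. Dim probes limit these results: 36 of the 54 genes were above background on all arrays, and 20 of the 31 that rose.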
